A study of Mus musculus with 37 samples.

Results

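The proteasome subunit genes were followed through 4 RNA-seq comparisons of mouse oocytes and early embryos. Members were the protein-coding genes whose symbol starts with Psma, Psmb, Psmc, Psmd, Psme, Psmf or Psmg and a number, and 50 such genes were listed in at least 1 table and 46 in all of them. They made up 49 of 25053 genes in ZH GV oocytes, 47 of 19033 in CabZ GV oocytes, 50 of 24305 in CabZ 2-cell embryos and 47 of 15855 in Zscan4 overexpression (OE) embryos. Psmb9 was not listed for ZH oocytes, Psmb8, Psmb9 and Psme1 were not listed for CabZ GV oocytes, and Psma8, Psmb8 and Psmb9 were not listed for OE embryos. One of the 50, Psmc3ip, matches by name only, since it encodes the meiotic recombination factor Hop2. It is counted among the members in the tests and at the ATAC-seq starts, and its values are described apart. The summed levels, the comparison of stages and the promoters leave it out.

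The 26S proteasome degrades ubiquitin-tagged proteins. Its barrel-shaped 20S core is built of rings of alpha and beta subunits with the cutting sites inside, and a 19S cap with a ring of ATPases at its base recognises, unfolds and feeds in the substrate. Oocytes carry stored proteasomes and stored mRNA, and maternal protein is broken down through this machinery as the embryo begins to transcribe its own genome.

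Both lines were on a C57BL/6 background and carried a Zp3-Cre transgene, which drives deletion in growing oocytes. ZH KO and CabZ KO females had both floxed alleles of Hira or Cabin1, subunits of a chaperone for histone H3.3, and their Het controls carried Zp3-Cre with 1 floxed allele. Germinal vesicle (GV) oocytes came from superovulated females. The CabZ 2-cell embryos came from Het and KO females, and how they were made for RNA-seq is not given in the sources used here. For the last table, wild-type GV oocytes received GFP or Zscan4d RNA, were matured and were activated without sperm to the 2-cell stage. Each library was a pool according to the series design, with 4 libraries in each of 7 RNA-seq groups and 3 in the OE group, and whether pools came from separate females is not stated, so the p-values measure the spread between these pools.

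Levels are FPKM, reads per kilobase of the whole gene span scaled to the reads of the library, and were tested only within a table because the tables were normalised separately, so values of different tables are set side by side as a description. Reads on genes ranged from 8996896 to 15082552 in ZH libraries, from 9115864 to 12468934 in CabZ GV libraries, from 7947414 to 8239516 in CabZ Het and from 5819315 to 6330240 in CabZ KO 2-cell libraries, and from 9885415 to 21869857 in the last table. Of the 10 oocyte markers, none was under 1 FPKM in all libraries of any table, and the sum of the 8 granulosa and cumulus markers was at most 2.05 FPKM in any library. Cabin1 was low and did not overlap between CabZ genotypes (0.0891 to 0.159 FPKM in Het and 0.0125 to 0.0482 FPKM in KO GV oocytes). A lower Cabin1 level was not particular to the CabZ line. In ZH oocytes it was at 0.259 to 0.346 FPKM in Het and 0.064 to 0.102 FPKM in KO libraries. Hira was at or below 0.0117 FPKM in every ZH library, Het included, so its level does not check the ZH labels. Zscan4d was not higher in the embryos labelled Zscan4 OE, at 83.7, 84.3 and 70.3 FPKM against 69.4, 134, 116 and 149 FPKM in GFP embryos, so the level of this gene does not check those labels.

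CabZ KO 2-cell embryos had lower mRNA levels for most of the proteasome than CabZ Het embryos. Of 41 members with a mean of at least 1 FPKM, 29 fell and 2 rose at an adjusted p under 0.05, against 30.9% of all 7798 genes tested falling and 25.2% rising. The median log2 difference (KO minus Het, on log2(FPKM + 1)) was -1.005 over the members and -0.11 over all genes tested. Without Psmc3ip, 28 of 40 fell and the median was -0.99. A fall of more than 2-fold on log2(FPKM + 1) was called for 21 members, Psmc3ip among them, against 20.4% of all genes. No member rose by that much, against 16.9% of all genes. The pseudocount of 1 FPKM shrinks folds of low values, so called members such as Psma3 and Psmc6, at 0.366 and 0.479 of their Het means, were not counted. Psmb7, Psmc3, Psmd11 and Psmd14 had KO means of 0.634, 0.94, 0.423 and 0.367 FPKM. They passed the limit of 1 FPKM only through their Het libraries. Het and KO values did not overlap for 31 of the 41 members, against 51% of all genes.

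**Figure D1:**
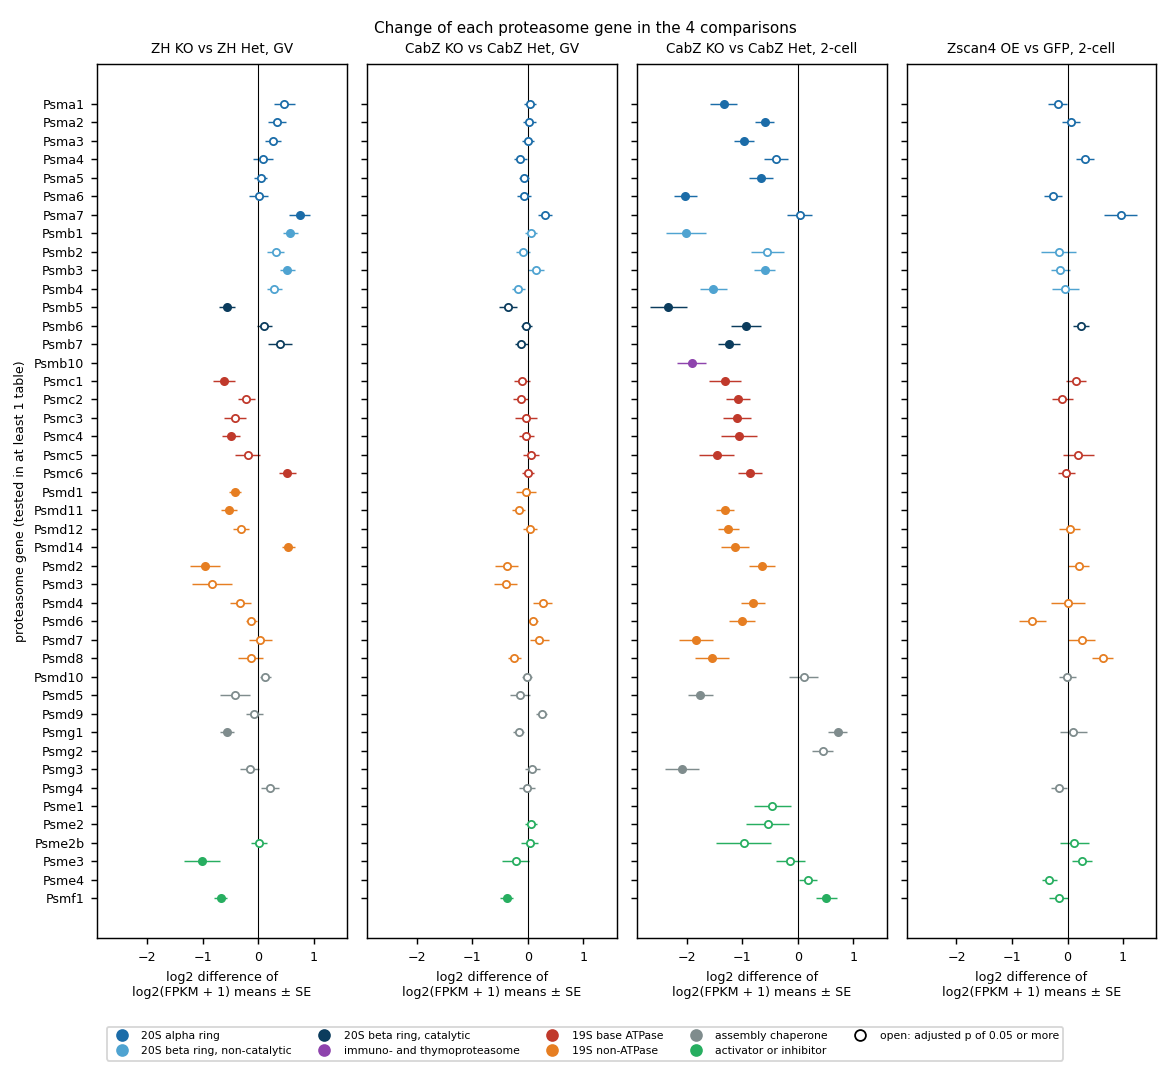
Log2 difference of each proteasome gene in the 4 comparisons, with the standard error as a bar, filled symbols at an adjusted p under 0.05 and colours for the roles of the genes. In CabZ 2-cell embryos nearly all 20S and 19S symbols lie to the left of 0, with Psmb5 farthest at -2.33, whereas in ZH oocytes 20S symbols lie mostly to the right and 19S symbols mostly to the left.

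All 3 catalytic subunits of the standard 20S core fell in CabZ KO 2-cell embryos. Psmb5, which carries the chymotrypsin-like site, was at 10.4, 33.7, 24.6 and 17.1 FPKM in the 4 Het libraries and at 4.29, 2.41, 2.86 and 3.17 FPKM in the 4 KO libraries, a log2 difference of -2.33 ± 0.33 (SE, adjusted p = 0.000503). This was the largest fall of any member, and its KO mean was 0.148 of the Het mean. Psmb7, which carries the trypsin-like site, was at 2.12, 3.45, 3.55 and 2.42 FPKM in Het and 0.571, 0.578, 0.924 and 0.463 FPKM in KO libraries, with a difference of -1.24 ± 0.19 (adjusted p = 0.000763). Psmb6, which carries the caspase-like site, was at 30.9, 58.4, 79.1 and 52.5 FPKM in Het and 23.01, 27.6, 28.6 and 29.7 FPKM in KO libraries (-0.93 ± 0.27, adjusted p = 0.0161). No Het library overlapped a KO library for any of these genes, and Het libraries spread more widely than KO libraries.

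Of the 4 beta subunits without a cutting site, Psmb1, Psmb3 and Psmb4 fell. Psmb1 was at 18.5, 26.5, 26.6 and 21.7 FPKM in Het and 6.28, 6.52, 7.79 and 1.63 FPKM in KO libraries (-2.01 ± 0.36, adjusted p = 0.00157), and KO replicate 4 was the lowest library. Psmb4 was at 20.5, 45.5, 33.2 and 29.8 FPKM in Het and 11.9, 9.68, 10.9 and 8.45 FPKM in KO libraries (-1.52 ± 0.25, adjusted p = 0.000922). Psmb3 fell less, by 0.60 on the log2 scale. Psmb2 did not pass the test (-0.55 ± 0.29, adjusted p = 0.139), with 7.56, 11.9, 11.8 and 11.01 FPKM in Het and 4.94, 5.05, 6.48 and 12.9 FPKM in KO libraries, of which only replicate 4 lay above the Het range.

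Of the 7 alpha subunits, which form the outer rings of the core, 5 fell. Psma6 was at 8.90, 10.5, 14.6 and 8.83 FPKM in Het and 1.66, 1.47, 2.64 and 1.67 FPKM in KO libraries (-2.02 ± 0.21, adjusted p = 0.000217), the largest fall of the ring. Psma1 was at 28.2, 35.2, 28.5 and 24.4 FPKM in Het and 14.7, 11.5, 11.95 and 6.76 FPKM in KO libraries (-1.33 ± 0.24, adjusted p = 0.00156). Psma2, Psma3 and Psma5 fell by 0.60 to 0.97 on the log2 scale, each without overlap. The other 2 did not pass the test, since Psma4 had a difference of -0.40 ± 0.21 and Psma7 one of 0.03 ± 0.22, with overlapping groups for both. Psma8, the germ cell form of an alpha subunit that replaces Psma7 in spermatocytes, was at 0, 0.00228, 0.0179 and 0 FPKM in Het and 0, 0.0199, 0.00283 and 0.0245 FPKM in KO libraries.

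All 6 ATPases of the 19S base fell, and 5 of them by more than 2-fold. Psmc5 was at 7.72, 11.9, 14.5 and 5.78 FPKM in Het and 4.05, 2.13, 1.70 and 3.85 FPKM in KO libraries (-1.46 ± 0.32, adjusted p = 0.00381), and Psmc1 was at 4.71, 8.28, 9.63 and 7.18 FPKM in Het and 3.20, 2.28, 3.36 and 1.02 FPKM in KO libraries (-1.31 ± 0.29, adjusted p = 0.00452). Psmc2 was at 6.68, 8.91, 10.9 and 6.95 FPKM in Het and 3.25, 3.36, 4.73 and 2.44 FPKM in KO libraries (-1.07 ± 0.22, adjusted p = 0.00292). Het and KO ranges were apart for each ATPase. Psmc3 was at 2.20, 4.33, 3.25 and 2.56 FPKM in Het and 1.76, 0.594, 0.907 and 0.5 FPKM in KO libraries (-1.09 ± 0.25, adjusted p = 0.00502). The values of Psmc4 were 3.06, 7.39, 8.70 and 3.06 FPKM in Het and 2.43, 1.43, 2.60 and 1.37 FPKM in KO libraries (-1.06 ± 0.33, adjusted p = 0.021), and its call was lost in 4 of the fits that left out 1 library. Psmc6 fell by 0.87.

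All 8 tested non-ATPase subunits of the 19S cap fell, 6 of them by more than 2-fold. Psmd7, the partner of the deubiquitinase of the lid, had 35.2, 67.04, 63.7 and 32.9 FPKM in Het and 16.4, 8.93, 16.1 and 10.3 FPKM in KO libraries (-1.83 ± 0.31, adjusted p = 0.00108). That deubiquitinase, Psmd14, which removes ubiquitin chains from substrates, was at 1.02, 3.10, 2.51 and 1.57 FPKM in Het and 0.243, 0.297, 0.745 and 0.184 FPKM in KO libraries (-1.12 ± 0.25, adjusted p = 0.00471). Both partners were thus lower in every KO library than in any Het library. Psmd8 was at 8.57, 22.3, 18.97 and 10.99 FPKM in Het and 3.65, 3.95, 6.11 and 3.43 FPKM in KO libraries (-1.55 ± 0.31, adjusted p = 0.00244). The scaffold subunit Psmd11 was at 1.98, 2.78, 2.72 and 2.60 FPKM in Het and 0.424, 0.452, 0.523 and 0.29 FPKM in KO libraries (-1.30 ± 0.16, adjusted p = 0.000314). The Psmd11 KO mean was 0.168 of the Het mean, although the log scale with its pseudocount of 1 FPKM gives a smaller fold for such low values. Psmd12 was at 6.21, 8.96, 8.80 and 6.49 FPKM in Het and 2.55, 2.25, 3.25 and 2.34 FPKM in KO libraries (-1.25 ± 0.19, adjusted p = 0.000656), and Psmd6 at 8.28, 10.5, 11.4 and 10.4 FPKM in Het and 5.52, 5.38, 5.18 and 2.61 FPKM in KO libraries (-1.005 ± 0.23, adjusted p = 0.0049). Psmd2 and the ubiquitin receptor Psmd4 fell by 0.65 and 0.81. Psmd1, Psmd3 and Psmd13 were under the limit of 1 FPKM, and of these Psmd13 did not overlap (0.581 to 1.04 FPKM in Het and 0.0824 to 0.455 FPKM in KO libraries, exact permutation p = 0.0286, two-sided and the smallest possible for 4 against 4 libraries).

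**Figure D2:**
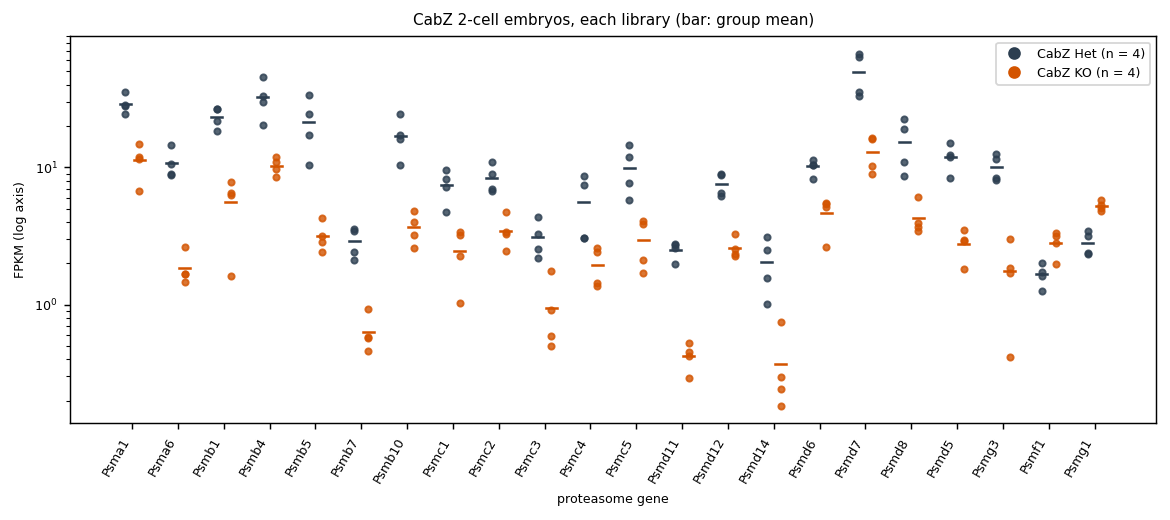
FPKM on a log axis of the 20 proteasome genes that fell by more than 2-fold, and of Psmf1 and Psmg1, in each CabZ Het (dark) and CabZ KO (orange) 2-cell library, with a bar at the group mean. KO values lie below Het values for each of the first 20 genes, and above them for Psmg1, whose lowest KO library was at 4.84 FPKM and highest Het library at 3.42 FPKM.

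Assembly chaperones did not move together. Psmg3, a chaperone of the alpha ring, was at 8.40, 12.5, 11.4 and 8.14 FPKM in Het and 3.01, 1.84, 1.71 and 0.417 FPKM in KO libraries (-2.09 ± 0.31, adjusted p = 0.000635), and Psmd5, a chaperone of the 19S base, was at 8.38, 14.9, 11.8 and 12.2 FPKM in Het and 2.92, 2.94, 3.47 and 1.82 FPKM in KO libraries (-1.76 ± 0.22, adjusted p = 0.000332). Psmg1, which acts early in alpha ring assembly, rose instead, from 2.35, 3.18, 2.36 and 3.42 FPKM in Het to 4.84, 5.33, 5.09 and 5.78 FPKM in KO libraries (0.72 ± 0.17, adjusted p = 0.00582). Its partner Psmg2 did not pass the test (0.45 ± 0.20, adjusted p = 0.0764), with 0.751 to 0.981 FPKM in Het and 1.11 to 2.43 FPKM in KO libraries. Psmd10 had a difference of 0.11 ± 0.26, and Psmd9 and Psmg4 were under 1 FPKM in every library.

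None of the 5 activators passed the test. Psme1 and Psme2, the subunits of the interferon-inducible 11S activator, were at 2.40, 4.76, 7.36 and 2.49 FPKM and 3.10, 5.11, 6.16 and 2.78 FPKM in Het libraries and at 3.16, 4.03, 1.67 and 1.87 FPKM and 3.77, 5.12, 1.81 and 0.841 FPKM in KO libraries (adjusted p = 0.27 and 0.257). Psme3, the nuclear 11S activator, had a difference of -0.13 ± 0.26 with 5.13, 11.4, 10.4 and 9.83 FPKM in Het and 6.71, 6.996, 7.83 and 10.9 FPKM in KO libraries, and Psme4, a single-chain activator of the core, had one of 0.18 ± 0.16 with 3.06, 3.41, 2.44 and 3.34 FPKM in Het and 3.79, 3.70, 3.30 and 3.60 FPKM in KO libraries. These groups overlapped for Psme1, Psme2, Psme3 and Psme4 alike. Psme2b, a near copy of Psme2 whose reads may be split between them, was at 43.02, 73.7, 80.5 and 39.6 FPKM in Het and 45.6, 53.1, 27.2 and 9.24 FPKM in KO libraries (-0.98 ± 0.50, adjusted p = 0.125). The inhibitor Psmf1 rose, from 1.27, 2.02, 1.73 and 1.63 FPKM in Het to 3.17, 1.98, 2.82 and 3.32 FPKM in KO libraries (0.52 ± 0.19, adjusted p = 0.038). KO replicate 2 lay inside the Het range for Psmf1, and the call was lost in 6 of 8 fits that left out 1 library and with the replicate number as a block.

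The immunoproteasome subunits, which replace the standard catalytic subunits in cells exposed to interferon and in leukocytes, went in different directions. Psmb10 fell, from 10.3, 17.1, 24.3 and 16.03 FPKM in Het to 3.22, 4.83, 3.96 and 2.60 FPKM in KO libraries (-1.91 ± 0.27, adjusted p = 0.000467). Psmb8 and Psmb9 were near 0 in Het embryos and under the limit for the fit. Psmb8, whose exons share bases with the antisense gene Gm20496, was at 0, 0.0337, 0.0671 and 0.13 FPKM in Het and 0.733, 3.04, 0.338 and 1.47 FPKM in KO libraries (exact permutation p = 0.0286, two-sided). Psmb9, whose exons share bases with Tap1 on the other strand, was at 0.0218, 0.131, 0.282 and 0.588 FPKM in Het and 1.01, 1.85, 1.20 and 1.90 FPKM in KO libraries (exact permutation p = 0.0286). Both were higher in every KO library than in any Het library. Of the 4 leukocyte markers tested, 2 rose. The sum over the 6 listed was 3.83 to 11.6 FPKM in Het and 10.4 to 188 FPKM in KO libraries, with overlapping ranges. Lyz2, lysozyme of myeloid cells, was at 0, 0.706, 0.201 and 0.705 FPKM in Het and 1.68, 18.9, 29.1 and 164 FPKM in KO libraries (4.05 ± 1.00, adjusted p = 0.00733), and Tyrobp, a myeloid signalling adaptor, was at 0 FPKM in all Het libraries and at 0, 6.34, 2.85 and 20.9 FPKM in KO libraries (adjusted p = 0.0261). The pan-leukocyte gene Ptprc was at or below 0.0223 FPKM in every library and Cd74 had a difference of -0.98 ± 0.51 (adjusted p = 0.128). In KO replicate 1, with the least Lyz2 and no Tyrobp, Psmb8 was at 0.733 FPKM and Psmb9 at 1.01 FPKM. The part of leukocyte RNA in the Psmb8 and Psmb9 values was not tested.

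**Figure D3:**
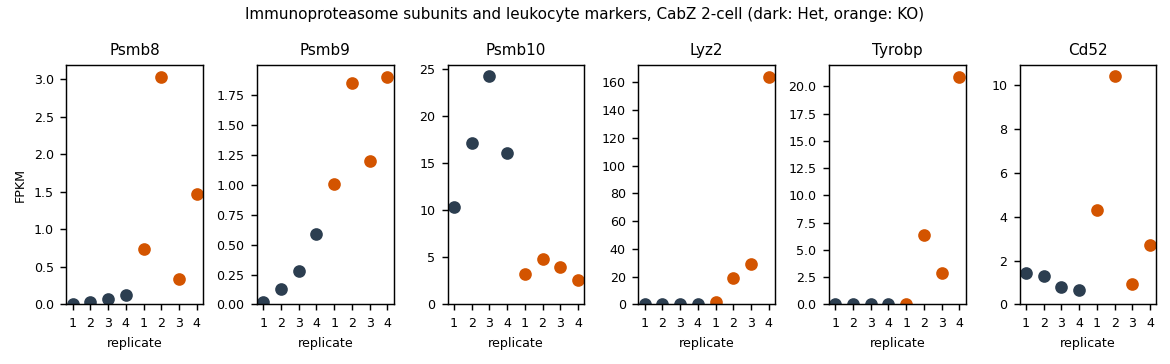
FPKM of 3 immunoproteasome subunits and 3 leukocyte markers in each CabZ 2-cell library, Het replicates first (dark) and KO replicates after them (orange), each panel with its own linear axis from 0. Psmb8 and Psmb9 are higher in all 4 KO libraries, as is Lyz2 with up to 164 FPKM in replicate 4, whereas Psmb10 is lower in all 4.

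With KO replicate 1 alone, the KO library with the least Lyz2, against the 4 Het libraries, the median over the members was -0.93. The median over all genes tested was -0.13 in that fit. This fit was chosen after the data were seen and assumes that the single KO library varies as the Het libraries do, and 17 of 28 named genes lost their call in it. The part of leukocyte RNA in the fall was not tested. Over the fits that left out 1 library the number falling was 24 to 29 and the median -1.16 to -0.91. Shifting each library to a common median moved the median of all genes from -0.11 to 0.13. Then 25 members fell and 3 rose, with a median of -0.76, whereas 1967 of all 7798 genes tested fell and 2495 rose. Oocyte markers were higher beside the lower proteasome genes, since 8 of the 10 rose in CabZ KO embryos with a median difference of 1.52. Mos, a kinase of meiotic arrest, was at 1.21, 4.69, 0.432 and 0.251 FPKM in Het and 28.7, 6.83, 14.9 and 18.9 FPKM in KO libraries, and Gdf9 was at 10.6, 10.2, 9.83 and 14.1 FPKM in Het and 58.6, 24.6, 32.2 and 77.7 FPKM in KO libraries. Whether the embryos of both groups were at the same point of the 2-cell stage was not tested. In pools, a lower level of a transcript and a lower share of cells that carry it cannot be told apart.

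Counted together, the 49 proteasome genes took 5698 ± 1108 RPM (reads scaled to the library total, here of reads on genes) in CabZ Het 2-cell embryos (mean ± SD, n = 4) and 2652 ± 186 in KO embryos (n = 4). The lowest Het library, at 4360.3 RPM, was above the highest KO library, at 2854. In GV oocytes of the same line the sums were 9498 ± 441 RPM in Het and 9464 ± 641 in KO libraries (n = 4 each). In ZH oocytes the sums were 8657 ± 631 RPM in Het and 10106 ± 1074 in KO libraries (n = 4 each), with overlapping ranges. GFP and OE embryos were at 3839 ± 439 (n = 4) and 3819 ± 747 (n = 3) RPM, with overlapping ranges. The tables were normalised separately, so the step between stages is a description.

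**Figure D4:**
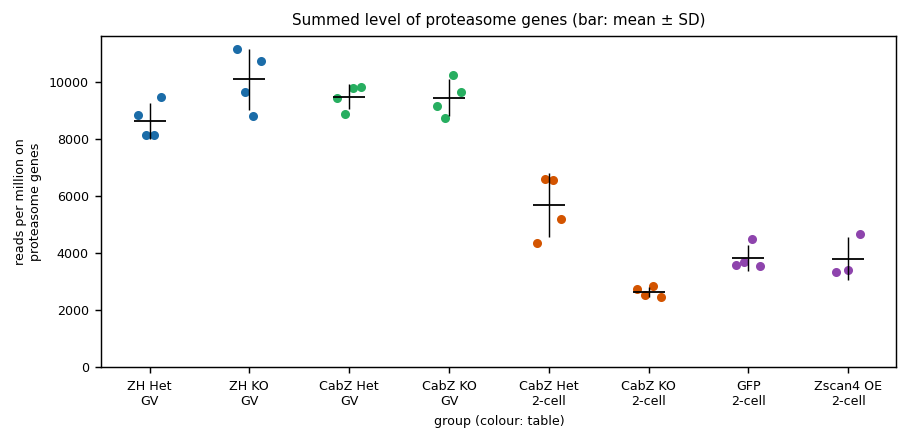
Summed RPM of the proteasome genes, for each library of the 8 RNA-seq groups, with the mean and standard deviation as a bar and colours for the 4 tables. GV libraries sit between 8151 and 11184 RPM, and the 4 CabZ KO 2-cell libraries, up to 2854, sit below the 4 CabZ Het 2-cell libraries.

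Set side by side, the stages differed more for some members than for others. The set was the 38 proteasome genes tested at the 2-cell stage, listed in both CabZ tables and averaging at least 1 FPKM in either Het group. Psmg2 was tested but missed that limit, with means of 0.146 FPKM in Het GV oocytes and 0.882 FPKM in Het 2-cell embryos. Of the 38, 10 had a higher mean FPKM in Het 2-cell embryos than in Het GV oocytes and 28 had not. Among the first 10, Psmb10 went from 0.461 ± 0.139 to 16.9 ± 5.72 FPKM (mean ± SD, n = 4 each), Psmd7 from 12.3 ± 2.88 to 49.7 ± 18.2 FPKM and Psme4 from 0.842 ± 0.2 to 3.06 ± 0.441 FPKM. KO embryos had lower values than Het GV oocytes for 33 of the 38. Members under the limit in CabZ 2-cell embryos were outside the set. Among them, Psmg4 had means of 4.70 FPKM in Het GV oocytes and 0.484 FPKM in Het 2-cell embryos, and Psmd9 had 2.12 and 0.391 FPKM. Within the set, 8 had a Het 2-cell mean under 33.3% of the Het GV mean, a rule that the first 10 could not meet. These 8 were Psma7, Psmb6, Psmc4, Psmc5, Psmd4, Psmd10, Psmf1 and Psmg1, and both members that rose in KO embryos were among them, with Psmf1 at 21.8 ± 1.80 FPKM in Het GV oocytes against 1.66 ± 0.31 FPKM in Het and 2.82 ± 0.6 FPKM in KO embryos. GFP embryos, which were made without sperm and sequenced in another table, had lower means than CabZ Het embryos for 32 of the 38 genes and lower means than CabZ KO embryos for 27. Such counts between tables were not made over all genes, so whether they are particular to these members was not tested.

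**Figure D5:**
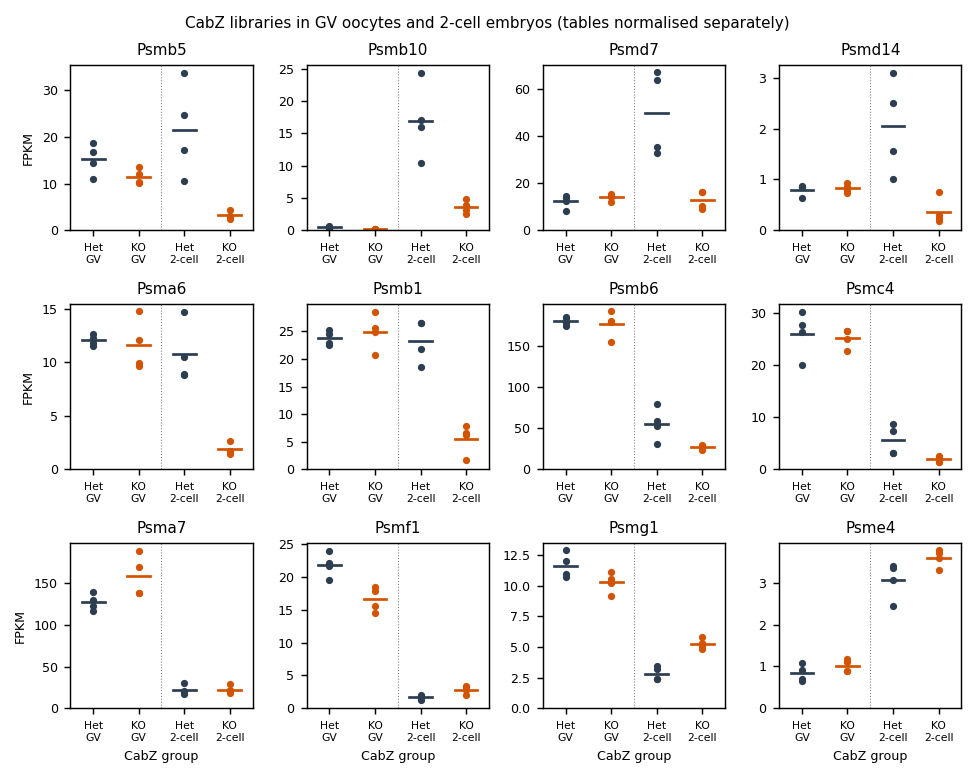
FPKM of 12 proteasome genes in each CabZ library, with Het dark, KO orange, a bar at the mean and a dotted line between the GV and 2-cell tables, which were normalised separately. Psmb10 and Psmd7 are high only in the Het 2-cell libraries among these 4 groups, Psmb6, Psmc4 and Psma7 are highest in GV oocytes, and Psmf1 and Psmg1 are the genes with higher KO than Het means at the 2-cell stage that passed the test.

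Promoters are shown for members that moved in CabZ KO 2-cell embryos, the fallen Psmb5, Psmb6, Psmc1 and Psmd12 and the risen Psmf1 and Psmg1, to set motifs of genes that moved in opposite directions side by side. RefSeq windows from 250 bases before to 50 after the gene start (GRCm38.p6) matched 41 of the 49 proteasome genes. The last 120 bases before the start follow, 5′ to 3′ on the strand of the gene, in lower case with matches to the ETS core CCGGAA, the antioxidant response core TGACNNNGC, the CCAAT box, the GC box GGGCGG and the NRF1 core, searched on both strands, in capitals.
Psmb5, chr14:54617996-54618115, minus strand: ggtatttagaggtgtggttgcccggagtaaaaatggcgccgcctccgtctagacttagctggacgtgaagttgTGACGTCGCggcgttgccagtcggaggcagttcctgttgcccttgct
Psmb6, chr11:70525237-70525356, plus strand: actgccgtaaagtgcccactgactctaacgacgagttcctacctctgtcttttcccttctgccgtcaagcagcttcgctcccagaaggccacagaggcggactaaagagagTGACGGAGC
Psmc1, chr12:100110082-100110201, plus strand: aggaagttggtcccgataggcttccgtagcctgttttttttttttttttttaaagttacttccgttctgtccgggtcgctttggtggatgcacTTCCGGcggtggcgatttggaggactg
Psmd12, chr11:107479408-107479527, plus strand: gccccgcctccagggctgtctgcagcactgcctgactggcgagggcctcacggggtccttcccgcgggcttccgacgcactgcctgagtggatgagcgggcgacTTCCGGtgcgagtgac
Psmf1, chr2:151741311-151741430, minus strand: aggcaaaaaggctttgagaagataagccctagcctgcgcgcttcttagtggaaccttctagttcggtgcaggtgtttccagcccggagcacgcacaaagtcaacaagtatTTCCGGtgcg
Psmg1, chr16:95990961-95991080, minus strand: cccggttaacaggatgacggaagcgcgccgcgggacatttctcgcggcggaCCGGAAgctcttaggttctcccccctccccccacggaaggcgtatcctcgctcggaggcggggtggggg

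The capitals mark the antioxidant response core in Psmb5 and Psmb6 and the ETS core in the other 4. The same stretch of Psma6, which also fell, is not printed and held only a CCAAT box. The Psmf1 stretch lies inside the gene span used for its FPKM, which ends at base 151744186, so the RefSeq start differs from the end of that span. In the whole windows, the ETS core was held by 19 of the 41 promoters (46.3%), by 32.0% of the 4367 promoters of genes tested in CabZ 2-cell embryos and by 15.2% of all 27025 promoters. Among the members it was held by 13 of 24 that fell and by 5 of 10 that were tested and did not fall. Of the latter only Psmf1 and Psmg1 rose, and both held it, so these counts do not compare the directions. The antioxidant response core, the kind of element bound by the factors that raise proteasome genes under stress, was held by 6 of the 41 (14.6%), against 15.3% of tested and 12.5% of all promoters. The NRF1 core was held by 7 (17.1%, against 11.6% and 4.78%), the CCAAT box by 14 (34.1%, against 42.8% and 37.9%) and the GC box by 23 (56.1%, against 58.2% and 35.9%). A match is a string of letters and not evidence of binding.

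In ZH oocytes the proteasome genes were called no more often than genes at large. Of 40 members tested, 5 rose and 9 fell at an adjusted p under 0.05, against 25.6% and 26.3% of all 5792 genes tested rising and falling. The median difference (KO minus Het) was -0.09 over the members and -0.04 over all genes. By sign, 13 of the 14 subunits of the 20S core were higher and 13 of the 16 tested subunits of the 19S cap were lower, with medians of 0.30 and -0.31, where 52.2% of all genes tested were lower by sign. Most of these did not pass the test, since 3 core genes rose and 1 fell and 5 cap genes fell and 2 rose. After a shift of each library to a common median, which moved the median of all genes from -0.04 to -0.19, the core was higher for 9 of 14 (median 0.16) and the cap lower for 14 of 16 (median -0.46), and after scaling to the table total the numbers were 13 of 14 (0.45) and 11 of 16 (-0.17). Leaving out 1 library at a time kept the core median between 0.23 and 0.38 and the cap median between -0.40 and -0.26. The difference between core and cap was not tested. Oocyte markers had a median of -0.55 beside these changes, with 3 of 10 lower, namely Bmp15 (-2.16 ± 0.26), Mos (-1.12 ± 0.16) and Zp2 (-0.73 ± 0.19). The summed granulosa and cumulus markers were 0.376 to 0.687 FPKM in Het and 0.916 to 2.05 FPKM in KO libraries, without overlap, and Inha was at 0.153, 0.071, 0 and 0.314 FPKM in Het and 1.38, 1.53, 0.687 and 1.18 FPKM in KO libraries. Their part in the ZH differences was not tested.

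The 5 members that rose in ZH KO oocytes included 3 of the core. Psma7 was at 66.5, 58.2, 66.7 and 86.4 FPKM in Het and 150.2, 104, 87.9 and 133 FPKM in KO libraries (0.75 ± 0.19, adjusted p = 0.00931). Psmb1 was at 13.4, 11.1, 12.97 and 15.5 FPKM in Het and 23.4, 17.6, 19.5 and 20.8 FPKM in KO libraries (0.58 ± 0.14, adjusted p = 0.00661), and Psmb3 at 7.39, 6.54, 7.49 and 8.63 FPKM in Het and 9.82, 11.1, 13.7 and 10.7 FPKM in KO libraries (0.53 ± 0.14, adjusted p = 0.00927). In each of these the lowest KO library lay above the highest Het library. The deubiquitinase Psmd14, of the cap, was at 0.649, 0.611, 0.675 and 0.783 FPKM in Het and 1.75, 1.36, 1.18 and 1.55 FPKM in KO libraries (0.55 ± 0.12, adjusted p = 0.00376), and the ATPase Psmc6 rose by 0.52. The Het mean of Psmd14 was 0.68 FPKM, so it passed the limit of 1 FPKM only through its KO libraries. Psmb6 and Psmb7, with 136, 109, 128 and 158 and 2.14, 2.20, 2.23 and 2.42 FPKM in Het and 142, 131, 149 and 149 and 4.66, 2.60, 1.94 and 4.53 FPKM in KO libraries, did not pass the test (adjusted p = 0.51 and 0.14).

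The 9 members that fell in ZH KO oocytes included the remaining catalytic subunit, Psmb5, which was the single core gene lower by sign, at 9.69, 9.42, 9.16 and 11.7 FPKM in Het and 5.14, 6.09, 7.41 and 7.48 FPKM in KO libraries (-0.55 ± 0.14, adjusted p = 0.0102). On log2(FPKM + 1), Psme3 was the only member to pass a 2-fold change, where 7.2% of all genes tested fell and 10.5% rose by as much. It was at 13.5, 13.96, 11.7 and 8.24 FPKM in Het and 2.23, 8.96, 7.44 and 4.69 FPKM in KO libraries (-1.01 ± 0.33, adjusted p = 0.026). Its groups overlapped and its call was lost in 4 of 8 fits that left out 1 library. By the ratio of FPKM means the called Psmd2 and Psmd14 also passed 2-fold, with KO means 0.492 and 2.15 times the Het means. Psmd2, a scaffold subunit of the 19S base, was at 9.84, 7.74, 6.71 and 7.63 FPKM in Het and 2.45, 7.49, 3.23 and 2.53 FPKM in KO libraries (-0.96 ± 0.27, adjusted p = 0.0147), with KO replicate 2 apart from the other KO libraries. The inhibitor Psmf1 was at 15.9, 13.8, 13.4 and 15.7 FPKM in Het and 8.43, 8.95, 9.59 and 8.31 FPKM in KO libraries (-0.68 ± 0.11, adjusted p = 0.00112), the smallest adjusted p of any member in this table. Psmc1 was at 9.36, 10.4, 8.37 and 9.91 FPKM in Het and 6.35, 7.53, 3.47 and 6.86 FPKM in KO libraries (-0.61 ± 0.20, adjusted p = 0.0261), and its call was lost in 3 of 8 such fits. Psmg1, Psmd11, Psmc4 and Psmd1 fell by 0.42 to 0.56. The KO mean of Psmd11 was 0.763 FPKM, so this gene passed the limit of 1 FPKM only through its Het libraries.

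Of 9 members with low values in ZH oocytes, 5 did not overlap between genotypes, 4 higher and 1 lower in KO. Such a gap was common, since 46.9% of all ZH genes tested did not overlap, and neither did 13 of the 40 members tested. Psmg2 was at 0.0458, 0.0372, 0.168 and 0.153 FPKM in Het and 1.08, 0.674, 0.78 and 0.694 FPKM in KO libraries, and Psmd13 was at 0.0561, 0.0934, 0.134 and 0.168 FPKM in Het and 0.277, 0.583, 0.262 and 0.378 FPKM in KO libraries (exact permutation p = 0.0286 for each, two-sided). Psme1 was near 0, at 0, 0.0229, 0 and 0.0144 FPKM in Het and 0.226, 0.183, 0.0442 and 0.043 FPKM in KO libraries. Psma8 was also near 0, at 0, 0.00139, 0 and 0.000876 FPKM in Het and 0.00457, 0.00444, 0.00805 and 0.00392 FPKM in KO libraries. The thymic subunit Psmb11 was the lower one, at 0.274, 0.23, 0.2 and 0.254 FPKM in Het and 0.0474, 0.123, 0.167 and 0.0812 FPKM in KO libraries (exact permutation p = 0.0286, as for Psme1 and Psma8). Psme2 and Psme4 overlapped, with 0.874, 0.794, 0.936 and 1.07 and 0.577, 0.485, 0.616 and 0.59 FPKM in Het and 0.91, 0.961, 1.54 and 0.695 and 0.654, 0.401, 0.483 and 0.64 FPKM in KO libraries. Psmb8 was at 0, 0, 0.0485 and 0.0395 FPKM in Het and 0, 0, 0 and 0.0393 FPKM in KO libraries, and Psmb10 at 0.318, 0.345, 0.089 and 0.2 FPKM in Het and 0.237, 0.069, 0.25 and 0.0812 FPKM in KO libraries, both overlapping. Gene length moved with the ZH differences, since among protein-coding genes tested split into 3 equal classes by exon length, the shortest class had a median difference of 0.16 and the longest one of -0.26. Core genes had a median exon length of 2335 bases and cap genes one of 2814 bases, and the part of length in the difference between them was not tested.

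In CabZ GV oocytes the proteasome genes gave almost no calls between genotypes. Of 40 members tested none rose and 1 fell, against 8.2% and 5.73% of all 6339 genes tested, and the medians were -0.03 over the members and -0.02 over all genes. None passed a 2-fold change, against 2.07% of all genes rising and 0.836% falling by as much, and 3 of 40 members had an unadjusted p under 0.05 in limma, against 1704 of the 6339 genes. The member that fell was Psmf1, at 23.96, 22.1, 21.7 and 19.6 FPKM in Het and 18.4, 14.4, 17.8 and 15.6 FPKM in KO libraries (-0.38 ± 0.11, adjusted p = 0.0486). The groups did not overlap, but the call was lost in 7 of 8 fits that left out 1 library, with a pseudocount of 0.1 FPKM, without the filter, with a block and with a trend. Psmb5 was at 14.4, 10.99, 16.8 and 18.7 FPKM in Het and 13.5, 12.1, 10.1 and 10.3 FPKM in KO libraries, with overlapping groups (-0.36 ± 0.16, adjusted p = 0.192). Psmb6 was at 184, 177, 174 and 184 FPKM in Het and 179, 154, 191 and 179 FPKM in KO libraries (-0.03 ± 0.10). Psmb7 was at 4.79, 4.92, 4.77 and 5.12 FPKM in Het and 4.29, 3.54, 5.40 and 4.68 FPKM in KO libraries (-0.12 ± 0.12). Neither catalytic subunit passed the test, and both overlapped. Psmb10, under the limit, was at 0.296, 0.632, 0.432 and 0.483 FPKM in Het and 0.221, 0.0805, 0.231 and 0.243 FPKM in KO libraries (exact permutation p = 0.0286). The activators overlapped as well. Psme2 was at 1.46, 1.45, 1.11 and 1.41 FPKM in Het and 1.16, 1.68, 1.54 and 1.39 FPKM in KO libraries. Psme3 was at 10.1, 12.2, 7.05 and 7.80 FPKM in Het and 10.4, 10.8, 5.63 and 5.30 FPKM in KO libraries, and Psme4 at 0.661, 0.698, 0.918 and 1.09 FPKM in Het and 1.11, 1.17, 0.882 and 0.897 FPKM in KO libraries. Psma8, again near 0, was at 0.00713, 0.0048, 0.00319 and 0.00496 FPKM in Het and 0.0267, 0, 0 and 0 FPKM in KO libraries.

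Per kilobase of exon, which allows a comparison between genes, the leading members in CabZ Het GV oocytes were Psmb2 with 501 ± 48.4 RPM per kilobase of exon (mean ± SD, n = 4), Psma6 with 334 ± 13.8 and Psma7 with 251 ± 19.9. Psmb6 and Psmc5 followed with 239 and 238, which did not differ beyond their spread. The lowest were Psma8, Psmb11, Psmd13 and Psmb10, all under 1 on this scale. In CabZ Het 2-cell embryos Psma6 and Psmb2 led with 297 and 282, within their spread of each other, followed by Psmd7 with 178, and in KO embryos Psmb2 was at 196 and Psma6 at 51.7. Where a member shares exon bases with a gene on the other strand, as Psmb7 does with Nek6 and Psmc3 with Slc39a13, reads of both cannot be told apart.

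In embryos labelled Zscan4 OE, no proteasome gene passed limma against GFP embryos. Of 26 members tested 0 rose and 0 fell at an adjusted p under 0.05, against 0.0932% and 1.7% of all 4293 genes tested, and 4 had an unadjusted p under 0.05, against 850 of the 4293 genes. By 2-fold change the shares of all genes were 0.0233% rising and 1.42% falling, with no member among them. The median difference (OE minus GFP) was 0.02 over the members and 0.03 over all genes. Psma7 had the largest difference without passing the test, with 17.3, 9.07, 12.5 and 8.91 FPKM in the 4 GFP libraries and 19.1, 35.7 and 18.4 FPKM in the 3 OE libraries (0.96 ± 0.29, adjusted p = 0.134). Psmb6, the one catalytic subunit tested here, was at 68.5, 79.5, 91.6 and 80.03 FPKM in GFP and 90.5, 92.3 and 100.1 FPKM in OE libraries (0.24 ± 0.15, adjusted p = 0.389). Activators and inhibitor did not pass the test either. Psme3 was at 4.69, 6.71, 6.88 and 7.41 FPKM in GFP and 7.59, 7.26 and 8.62 FPKM in OE libraries (0.26 ± 0.17). Psme4 was at 1.83, 2.24, 2.12 and 2.06 FPKM in GFP and 1.35, 1.51 and 1.44 FPKM in OE libraries (-0.33 ± 0.13), without overlap, and Psmf1 at 2.13, 2.02, 3.09 and 2.52 FPKM in GFP and 1.77, 1.76 and 2.73 FPKM in OE libraries (-0.16 ± 0.18). The other 21 listed members were under the limit, among them Psmb5 at 0.428, 0.0502, 0.442 and 0.0172 FPKM in GFP and 0, 0.169 and 0.138 FPKM in OE libraries and Psmb7 at 0.349, 0.163, 0.192 and 0.145 FPKM in GFP and 0.145, 0.23 and 0.112 FPKM in OE libraries. Psmb10 was at 0.343, 0.241, 0.0472 and 0.496 FPKM in GFP and 0.0923, 0.143 and 0.279 FPKM in OE libraries. Both subunits of the inducible activator were near 0, with Psme1 at 0.546, 0, 0.0188 and 0.0197 FPKM in GFP and 0.103, 0 and 0.202 FPKM in OE libraries and Psme2 at 0.0653, 0.107, 0.122 and 0.0366 FPKM in GFP and 0.0136, 0.0798 and 0 FPKM in OE libraries. An exact test of 4 against 3 libraries cannot go below p = 0.0571.

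Psmc3ip followed the proteasome genes in CabZ KO 2-cell embryos without being one of them. It was at 20.5, 39.2, 38.5 and 24.5 FPKM in Het and 8.29, 5.52, 6.05 and 3.09 FPKM in KO libraries (-2.24 ± 0.30, adjusted p = 0.000421), and it did not pass the test in ZH or CabZ GV oocytes (adjusted p = 0.427 and 0.552).

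Of 36 other genes of the ubiquitin-proteasome pathway, 22 were tested in CabZ 2-cell embryos, where 10 fell and 1 rose with a median of -0.47, against 30.9% and 25.2% of all genes tested and a median of -0.11. The ubiquitin gene Rps27a was at 21.6, 26.9, 29.4 and 25.4 FPKM in Het and 10.7, 8.26, 7.55 and 4.63 FPKM in KO libraries (-1.65 ± 0.24), and the ubiquitin receptor of the 19S cap Adrm1 was at 5.15, 7.87, 6.97 and 4.73 FPKM in Het and 1.83, 1.84, 2.18 and 1.01 FPKM in KO libraries (-1.40 ± 0.22, adjusted p = 0.000799). Zfand5, which binds the proteasome, had a difference of -1.55 ± 0.22. Akirin2, needed for the nuclear import of proteasomes, was the 1 that rose, from 5.42, 7.46, 6.57 and 7.28 FPKM in Het to 26.3, 27.99, 27.6 and 38.7 FPKM in KO libraries (2.01 ± 0.19, adjusted p = 0.000155). In ZH oocytes 5 of 22 rose and 4 fell, shares no higher than the 25.6% and 26.3% of all genes tested, with Rps27a at 0.82 ± 0.19 and Ubb at 0.51 ± 0.13 among those that rose and Adrm1 at -0.68 ± 0.24, Ubqln1 at -0.64 ± 0.24 and Uba1 at -0.62 ± 0.16 among those that fell. None of 23 in CabZ GV oocytes and none of 12 in OE embryos passed limma, with 0 and 1 at an unadjusted p under 0.05.

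ATAC-seq, which marks open chromatin by transposase insertion, was available for CabZ GV oocytes. The number of member starts with a peak, Psmc3ip included, varied as much within genotypes as between them. A peak within 500 bases of the start was found for 6, 13 and 29 of the 50 members in the 3 Het libraries, with 43399, 67074 and 111327 peaks, and for 19, 5 and 6 in the 3 KO libraries, with 46070, 19160 and 29600 peaks. These were 12, 26 and 58% of members in Het and 38, 10 and 12% in KO libraries. Starts of all genes tested in CabZ GV oocytes had a peak for 13.4, 27.9 and 48.2% in Het and 23.0, 7.70 and 10.1% in KO libraries, so members had the smaller share in Het replicates A and B and the larger share in Het replicate C and all KO replicates, with the widest gap in KO replicate A. The fold enrichment at the members' starts had a median of 4.21 to 4.50 in each library. Psmd1 had a peak in all 6 libraries, Psmb6 in all 3 Het and no KO library, and 16 members, among them Psma6, Psmb10 and Psmg3, had none in any library. No test was made with 3 libraries a group and unequal peak numbers.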

How the data were processed

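RNA-seq was made from pools with the Smart-seq2 v4 kit, which does not keep the strand, so overlapping genes share reads. The authors aligned trimmed reads to GRCm38/mm10 with STAR (2.5.3a per the submitters' processing notes) and quantified them in Partek Flow, and the deposited FPKM values of the ZH and Zscan4 tables carry a constant of 0.01 or 0.001. The deposited values of both Cabin1 tables were treated as a score, since they fit reads divided by the gene span 2 times, and were multiplied by the span and rescaled to FPKM after subtraction of the constant. Low values fell on whole-read steps for 80.8 to 87.1% of entries. All FPKM here are over the span, introns included. ATAC-seq peaks were called by the authors for each library with MACS2 after Bowtie2 alignment to mm10, and the deposited peak lists give a fold enrichment and a −log10 q at the summit.

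The members and gene lists were chosen with earlier results of these data known. limma 3.58.1 (R 4.3.3) was fitted in each table to log2(FPKM + 1) of every gene that averaged 1 FPKM or more over the libraries of both groups. A gene under 1 FPKM in 1 group could thus enter through the other. Benjamini-Hochberg adjustment was over all genes tested, and the stricter call was a 2-fold change at an adjusted p under 0.05. Members under 1 FPKM were compared by a two-sided exact permutation test, which cannot go below 0.0286 with 4 against 4 libraries, or below 0.0571 with 3 against 4, so that the latter cannot reach 0.05. These single p-values were not adjusted. The rule named members past the stricter call, the 4 largest changes in each direction, and the catalytic, immunoproteasome, Psma8, activator and inhibitor genes. Values of every library are given for those a comparison turns on, the others are given by counts, means or ranges, and members named beyond the rule were chosen after their values were seen. Levels per kilobase of exon used GENCODE M21 exon lengths, and promoters came from RefSeq. On simulated data, 2-fold changes were recovered for 78% of genes in the ZH comparison over 5525 genes and for 52% in the CabZ 2-cell comparison over 7101 genes. Same-numbered replicates did not deviate together in every pair, so numbers were not used to pair libraries. Alternatives were a pseudocount of 0.1 FPKM, no filter, other scalings, a replicate block, a trend, and leaving out each library. Exact tests ran in scipy 1.17.1 under Python 3.11.15, tables were joined in pandas 2.3.3 and figures drawn in matplotlib 3.10.9.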

Additional observations from a re-analysis of the deposited data

Results flagged for a closer look

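In groups of 4 libraries, a library was noted where its gap to the nearest other library as a share of the group's range exceeded Dixon's critical value for 4 samples, and chance gives this in about 1 in 20 groups, of which 96 were examined. Psmd2 in ZH KO replicate 2 was at 7.49 FPKM, above the other 3 KO libraries. Psme2 in CabZ Het GV replicate 3 was at 1.11 FPKM, below the other 3. Psma6 in CabZ KO 2-cell replicate 3 was at 2.64 FPKM, above the other 3 KO libraries and below every Het library. Psmd6 in CabZ KO 2-cell replicate 4 was at 2.61 FPKM, below the other 3.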

How the results depend on the processing

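In ZH oocytes the median over the members was -0.24 with median scaling and turned to 0.027 with scaling to the table total, where 9 members were higher, and leaving out 1 library gave medians of -0.13 to 0.00, 4 to 8 members higher and 6 to 12 lower. The 12 came without KO replicate 2, the 8 without KO replicate 3 and the 6 without Het replicate 1 or 2. In CabZ GV oocytes 0 members were lower with a pseudocount of 0.1 FPKM, without the filter, with the replicate block or with a trend, and leaving out 1 library gave 0 to 1 lower, 0 to 0 higher and medians of -0.07 to 0.00. In CabZ 2-cell embryos the median was -1.26 with a pseudocount of 0.1 FPKM and -0.76 with median scaling, 1 member was higher with the replicate block, and 0 were higher and 7 lower with KO replicate 1 alone, a setting chosen after seeing the data. Leaving out 1 library gave 24 to 29 lower, 1 to 2 higher and medians of -1.16 to -0.91 there. For OE embryos these ranges were 0 to 0 lower, 0 to 0 higher and medians of -0.08 to 0.06, and median scaling moved the median of all genes from 0.03 to 0.13. At a −log10 q of at least 5, 9.33% of members in CabZ Het and 0.667% in CabZ KO libraries had an ATAC peak on average, against 8.83% and 1.72% of tested genes. With all peaks these means were 32% in Het and 20% in KO libraries, and leaving out 1 library then gave 19 to 42% and 11 to 25%. Of the named genes' log2 differences, 261 stayed on their side of the threshold and 27 lost their call in settings with all libraries or with KO replicate 1 alone, and 361, 24 and 1 that gained a call when 1 library was left out. No called difference changed sign, and 4 of 200 that were uncalled in both fits did. The cause of these changes was not tested. Depth limits members near 0, where a few reads set the value.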
